A study of Mus musculus with 4 samples.

Results

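Conventional CD8 and conventional CD4 T cells were compared with each other in the spleen of mice with acute graft-versus-host disease. A UMI (unique molecular identifier) counts 1 captured transcript, and barcodes were kept when they had 500 genes or more and no more than 10% of their UMIs from mitochondrial genes. A cell was called conventional when the log2 ratio of its CD45.1 to its CD45.2 antibody counts, each plus 1, exceeded 2.2. It was called CD8 when Cd8a plus Cd8b1 UMIs outnumbered Cd4 UMIs, and CD4 in the opposite case. The comparison holds 11015 CD8 and 11761 CD4 cells, together 22776 of the 36140 barcodes that passed the cell filter. Among the 31180 conventional cells, 7831 had neither coreceptor transcript and 573 had equal counts, and these stayed outside both classes.

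The 4 libraries were single-cell 3′ RNA libraries of sorted PI-, H-2Kb+, TCRb+ donor T cells, taken 8 days after disease induction. Recipients were BALB/c mice given 900 cGy, T cell-depleted bone marrow of CD45.1+ CD45.2+ wild-type C57BL/6 mice, regulatory T (Treg) cells sorted as CD4+ Foxp3-GFP+ CD25hi from CD45.2+ CD45.1- C57BL/6 mice, and, 2 days later, Treg-depleted CD4+ and CD8+ conventional cells of CD45.1+ CD45.2- wild-type C57BL/6 mice. Only the Treg donors differed: there was 1 library each with Treg cells of CD226+/+ TIGIT+/+ donors (the wild-type Treg library), with CD226-/- TIGIT+/+ (CD226-null), with CD226+/+ TIGIT-/- (TIGIT-null) and with CD226-/- TIGIT-/- (double-null). The first 2 were run on lane 3 and the last 2 on lane 4. Both compared classes were thus wild type in every library, and each library, a pool of 3, gave 1 CD8 and 1 CD4 sum. Values for each library are given below in that order.

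CD8 T cells recognise peptides on MHC class I and kill by releasing perforin and granzymes or by Fas ligand. CD4 T cells recognise MHC class II and act mainly through cytokines and surface ligands such as CD40 ligand, which license or help other cells. The lineage factors RUNX3 and ThPOK, the latter encoded by Zbtb7b, hold the 2 fates apart. In transplantation across an MHC barrier, both classes meet foreign MHC of the recipient and expand.

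The wild-type, CD226-null, TIGIT-null and double-null Treg libraries held 2098, 2600, 2902 and 3415 CD8 cells and 2750, 3098, 3100 and 2813 CD4 cells. CD8 cells made up 43.3%, 45.6%, 48.4% and 54.8% of the cells with a resolved class. CD8 cells were deeper in 4 of 4 libraries, with a mean of the libraries' medians of 10208 UMIs against 7973 UMIs (exact two-sided sign-flip permutation p = 0.13, the smallest that 4 pairs allow). Their median mitochondrial share was lower in 4 of 4 libraries, 3.60% against 3.83% by the means. The CD8 class rested on a median of 8 to 11 Cd8a and Cd8b1 UMIs a cell and the CD4 class on a median of 1 to 2 Cd4 UMIs, so 50% to 58.9% of CD4 cells and 6.59% to 8.79% of CD8 cells were classed by a margin of 1 UMI. A UMI of the other coreceptor was present in 14% to 16.9% of CD8 cells and 4.77% to 5.94% of CD4 cells. Pairs of libraries shared 16 to 27 barcodes. Around the antibody threshold, 603 cells with a log2 ratio from 2.2 to 2.3 (medians of 268 CD45.1 and 55 CD45.2 counts) lay just inside and 500 cells from 2.1 to 2.2 (medians of 271 and 60 counts) just outside.

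Summed over cells, CD8 cells carried a killer program of granzymes, perforin, NK-type receptors and Ccl5, and CD4 cells carried CD40 ligand, OX40, Maf, type 2 and most other cytokines and much of the interferon-response list. Of 11487 genes tested, 5444 (47.4%) differed between the classes at an adjusted p of at most 0.05 in edgeR's quasi-likelihood test with library as block and Benjamini-Hochberg adjustment. Of these, 2671 (23.3%) were higher in CD8 cells and 2773 (24.1%) were higher in CD4 cells. At least 1 log2 unit apart were 502 genes (4.37%), 220 (1.92%) higher in CD8 and 282 (2.45%) higher in CD4 cells, so most differences were small. Within lane 3, with 2 libraries, 1690 genes were higher in CD8 and 1801 in CD4 cells, and within lane 4 the counts were 1731 and 1762. Lineage genes other than the coreceptors stood with the class labels: 12 of 15 CD8 lineage genes were higher in CD8 and none in CD4 cells, and 14 of 14 CD4 lineage and help genes were higher in CD4 cells. Log2 values below are edgeR's CD8 over CD4 estimate, and ± gives the SD of the 4 libraries' own log2 ratios with a pseudocount of 1 CPM (CPM is the usual depth-scaled count, a gene's share of all UMIs of the class in that library; n = 4 libraries). The pseudocount shrinks the ratios of genes at low CPM and their SD, so for such genes ± understates the spread around the estimate. For Wdr95, for example, the libraries' ratios were 2.88 to 3.53 and the estimate was 4.10. Cd4, Cd8a and Cd8b1 set the classes and are no result. Nothing says that the libraries came from separate cohorts prepared apart. The p-values thus measure how the class difference within a library varied over these 4 libraries. In edgeR the variance of each gene is moderated by that of the other genes.

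**Figure D1:**
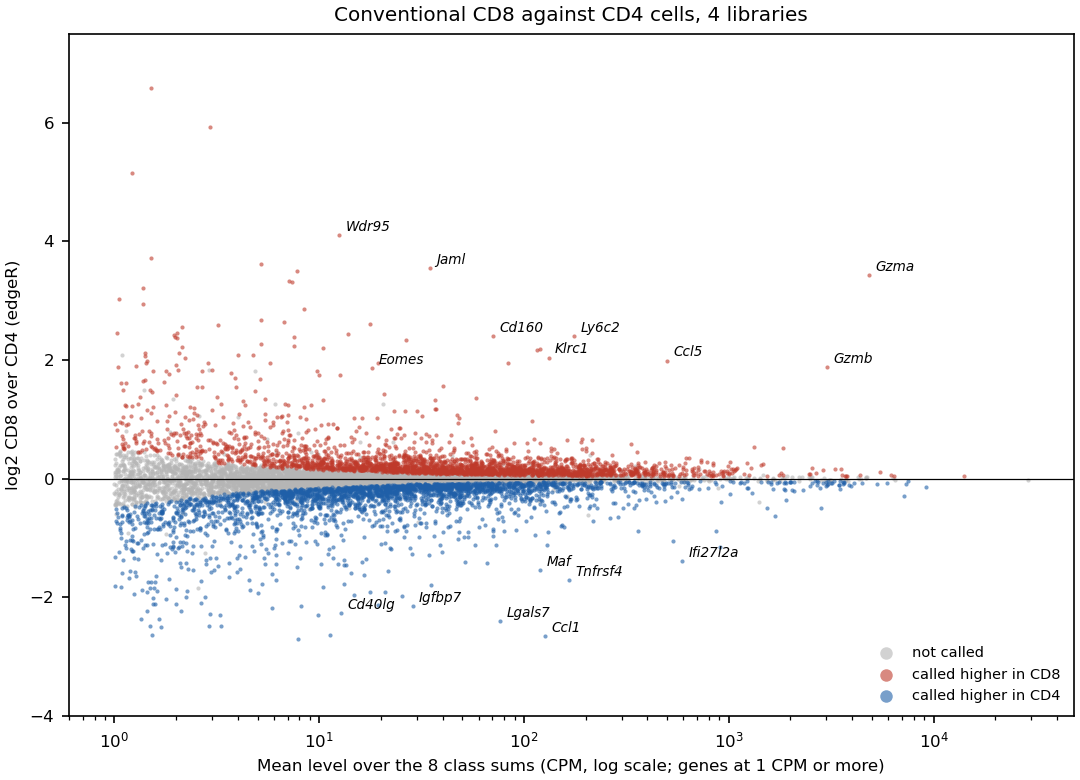
Each point is 1 gene with a mean of at least 1 CPM; the x axis is its mean level over the 8 class sums (CPM, log scale) and the y axis its log2 CD8 over CD4 estimate from edgeR. Red and blue points are genes called higher in CD8 and in CD4 cells and grey points were not called; Gzma stands apart at 3.43 and at a high level, while Ccl1 lies at -2.65.

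Gzma, Gzmb and Prf1 encode granule proteins and were higher in CD8 cells, though Wdr95 (log2 4.10) and Jaml (3.55) had larger estimates. Gzma, which encodes the serine protease granzyme A, was at 8919, 8569, 8354 and 9466 CPM in CD8 cells and 1027, 891, 814 and 608 CPM in CD4 cells. No CD8 value was under 8354 CPM and no CD4 value passed 1027 CPM, a 10.6-fold ratio of means (log2 3.43 ± 0.37, adjusted p = 0.00119). Within lane 4 alone, with 2 libraries, Gzma had log2 3.67 and missed the threshold (adjusted p = 0.106). Gzmb, the caspase-activating granzyme B, was at 5013, 4233, 4404 and 5329.9 CPM in CD8 cells and 1569, 1161, 1231 and 1269 CPM in CD4 cells. Gzmb UMIs were thus frequent in the CD4 class as well, and the classes did not overlap (log2 1.87 ± 0.16, adjusted p = 0.000575). Prf1, the pore-forming perforin, was at 187, 199.5, 178 and 190.5 CPM in CD8 cells and 37.7, 53.5, 36.4 and 42.6 CPM in CD4 cells. The CD8 values spread little, and Prf1 was 4.44-fold higher (log2 2.17 ± 0.19, adjusted p = 0.000284). Shares of cells told the same: after each cell was thinned to 2000 UMIs, a Gzma UMI remained in 89.7% to 90.3% of CD8 and 30.2% to 38.3% of CD4 cells (unthinned 94.6% to 95.6% and 53.3% to 61.0%). No cell type that should lack Gzma or Gzmb was set beside these values, and many CD4 cells were classed by a margin of 1 UMI, so the part of free RNA or of misclassed cells in the CD4 values of both genes was not tested.

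The 18 tested genes of the cytotoxic granule list had 13 members higher in CD8 and 2 higher in CD4 cells, with a median log2 of 0.25 beside -0.0012 over all genes tested. Gzmk, a further granzyme, was at 156, 127, 88.5 and 161 CPM in CD8 cells and 32.5, 40.0, 26.6 and 38.6 CPM in CD4 cells (log2 1.95 ± 0.28), lowest in both classes in the TIGIT-null Treg library, and missed the threshold within lane 3 alone (adjusted p = 0.154). Gzmm lay at 20.8 to 34.5 CPM in CD8 and 7.98 to 13.4 CPM in CD4 cells (log2 1.42 ± 0.10). Nkg7, a granule membrane protein needed for degranulation, differed far less at log2 0.51 ± 0.07, as did cathepsin W (Ctsw) at 0.67 ± 0.09 and Lamp1, the degranulation marker CD107a, at 0.26 ± 0.03. The 2 members higher in CD4 cells were Srgn, the proteoglycan core of granules, with 562 to 655 CPM in CD8 and 1081 to 1186 CPM in CD4 cells (log2 -0.88 ± 0.14), and Gzmc with 7.14 to 12.1 CPM in CD8 and 9.62 to 16.0 CPM in CD4 cells (log2 -0.40 ± 0.18, ranges that overlap). The calls of Lamp1 and Gzmc were lost in cells thinned to 2000 UMIs. Among serpins that shield killer cells from their own proteases, Serpinb9, the granzyme B inhibitor, was higher in CD8 cells at log2 0.62 ± 0.10, and Serpinb6b at 0.44 ± 0.05. Serpina3f ran the other way at -1.27 ± 0.20. Serpinb1a had a larger CD8 estimate than Serpinb9 or Serpinb6b, log2 1.25 ± 0.61, but was not called (adjusted p = 0.0506). Of the 7 serpins tested, 2 were higher in CD8 and 1 in CD4 cells. Over all genes tested the shares were 23.3% and 24.1%, so nothing is read from these counts.

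To show what lies before genes described here, the 250 bases before the start of 6 of them, chosen with their values known, are printed 5′ to 3′ on the gene's strand (RefSeq, GRCm38.p6). Gzma (chr13:113100982-113101231, minus strand), Prf1 (chr10:61297586-61297835, plus), Klrk1 (chr6:129623865-129624114, minus) and Gzmb (chr14:56262335-56262584, minus) stand for the CD8 side, and Tnfrsf4 (chr4:156013445-156013694, plus) and Ccl1 (chr11:82179813-82180062, minus) for the CD4 side. Capitals mark the RUNX core TGTGGT or its reverse complement ACCACA.
Gzma: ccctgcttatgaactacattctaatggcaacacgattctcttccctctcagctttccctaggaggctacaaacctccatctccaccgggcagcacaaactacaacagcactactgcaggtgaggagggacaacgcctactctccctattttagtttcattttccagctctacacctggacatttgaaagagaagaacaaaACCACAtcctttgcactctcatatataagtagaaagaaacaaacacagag
Prf1: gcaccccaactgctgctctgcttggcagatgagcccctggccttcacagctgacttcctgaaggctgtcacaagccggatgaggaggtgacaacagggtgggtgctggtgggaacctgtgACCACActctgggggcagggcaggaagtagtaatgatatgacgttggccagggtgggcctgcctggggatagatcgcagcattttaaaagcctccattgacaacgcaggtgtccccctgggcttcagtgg
Klrk1: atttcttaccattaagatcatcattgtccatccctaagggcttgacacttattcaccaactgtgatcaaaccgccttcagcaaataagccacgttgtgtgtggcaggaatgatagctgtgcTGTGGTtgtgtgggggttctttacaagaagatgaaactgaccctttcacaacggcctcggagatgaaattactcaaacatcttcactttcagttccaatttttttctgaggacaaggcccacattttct
Gzmb: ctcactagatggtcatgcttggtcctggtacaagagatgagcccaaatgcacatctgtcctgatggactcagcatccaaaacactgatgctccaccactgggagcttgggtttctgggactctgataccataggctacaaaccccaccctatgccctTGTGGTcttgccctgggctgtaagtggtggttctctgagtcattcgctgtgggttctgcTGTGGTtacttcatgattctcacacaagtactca
Tnfrsf4: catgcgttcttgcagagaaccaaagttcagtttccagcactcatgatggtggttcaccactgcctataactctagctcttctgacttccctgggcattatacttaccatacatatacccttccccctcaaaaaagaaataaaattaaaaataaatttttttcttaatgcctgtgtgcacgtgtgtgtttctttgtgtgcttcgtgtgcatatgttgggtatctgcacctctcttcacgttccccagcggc
Ccl1: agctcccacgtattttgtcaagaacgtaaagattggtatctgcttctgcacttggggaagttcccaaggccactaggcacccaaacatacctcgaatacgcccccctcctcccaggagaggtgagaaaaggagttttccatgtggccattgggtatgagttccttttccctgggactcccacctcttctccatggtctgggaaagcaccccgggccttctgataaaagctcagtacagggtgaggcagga

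In these windows the core begins at position -50 in Gzma, -130 in Prf1, -129 in Klrk1 and -93 and -34 in Gzmb, counted back from the RefSeq start of the gene, and it is in neither the Tnfrsf4 nor the Ccl1 window. For Prf1, Gzmb, Tnfrsf4 and Ccl1 the RefSeq start differs from that of the gene in the GENCODE annotation. These positions and the missing matches thus hold for the RefSeq windows only. Searched on both strands, the core TGTGGT lay in 4303 (15.9%) of 27025 promoters and in 1196 (13.5%) of the 8838 tested genes with a promoter in the table. Of the genes called at least 1 log2 unit higher in CD8 cells, 43 of 165 with a promoter held it (26.1%), against 34 of 204 (16.7%) of those called as much higher in CD4 cells. With a mean of at least 20 CPM in the higher class asked as well, it was 14 of 24 (58.3%) and 6 of 25 (24%), beside 555 of 4180 (13.3%) of all tested genes at that level. Among the 12 genes with the largest excess on each side, 8 of the 9 with a promoter held it on the CD8 side and 3 of 9 on the CD4 side. The T-box core GGTGTGA was in 10 of 165 (6.06%) and 8 of 204 (3.92%) and in 3.45% of tested genes. The AP-1 site TGACTCA was in 16 of 165 (9.70%) and 14 of 204 (6.86%) and in 3.61% of tested genes. At the 20 CPM level, T-box and AP-1 matches were each in 3 of 24 promoters (12.5%) on the CD8 side. On the CD4 side each was in 0 of 25, beside 3.47% (T-box) and 3.18% (AP-1) of all tested genes there. A larger CD8 share at that level was thus not particular to the RUNX core. In the sets of 12, T-box was in 1 of 9 (CD8) and 0 of 9 (CD4), and AP-1 in 0 of 9 of both. A RUNX and a T-box match can share bases. Motifs were searched with the gene values known, no test was made of these shares, and a match is a run of letters, not a bound site.

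NK-type receptors formed the next group on the CD8 side. Of 11 lectin receptors tested, 7 were higher in CD8 and 1 (Klrb1f, log2 -0.64) in CD4 cells, beside 23.3% and 24.1% of all genes tested. Their median log2 was 1.14. Klrk1, the activating receptor NKG2D, was at 144, 229, 180.5 and 233 CPM in CD8 cells and 40.7, 48.2, 40.6 and 43.0 CPM in CD4 cells. CD4 values varied less than CD8 values, and the classes did not overlap (log2 2.18 ± 0.26, adjusted p = 0.00112). Klrc1, the inhibitory NKG2A chain, was at 186, 248, 208 and 204 CPM in CD8 cells and 44.8, 70.0, 44.1 and 49.7 CPM in CD4 cells (log2 2.04 ± 0.16). Its partner Klrd1 (CD94) differed less at log2 0.65 ± 0.14, Klrc2 at 1.14 ± 0.10 and Klre1 at 2.44 ± 0.13. Klrg1, a marker of terminal effectors, was 32.2, 15.4, 18.7 and 11.1 CPM in CD8 and 13.1, 14.7, 14.9 and 6.80 CPM in CD4 cells, which overlap, and was not called (adjusted p = 0.171). Cd160, a receptor for HVEM outside the lectin family, was at 130.1, 126, 116 and 103 CPM in CD8 cells and 26.5, 19.2, 23 and 21.5 CPM in CD4 cells, 5.26-fold higher in CD8 cells (log2 2.41 ± 0.20, adjusted p = 2.01e-05). Crtam, an adhesion receptor of activated killer cells, lay at 12 to 14.6 CPM in CD8 and 0.776 to 2.08 CPM in CD4 cells (log2 3.32 ± 0.29).

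Some killer genes and lectin receptors lie close together on a chromosome. The ends of the Gzma to Esm1 and Klre1 to Klra7 intervals are themselves genes called higher in CD8 cells. Their counts are thus partly set by that choice and are a description. Over all genes tested, 23.3% were higher in CD8 and 24.1% in CD4 cells. On chromosome 13 (mm10), chr13:113093825-113218098 runs from Gzma to Esm1, and its 3 tested genes, Gzma, Gzmk and Esm1, were all higher in CD8 cells. Esm1, which encodes the secreted proteoglycan endocan, had log2 2.61 ± 0.34; its gene lies inside the annotated span of Gzmk on the opposite strand, so without stated strand use the reads of the 2 cannot be told apart. On chromosome 6, chr6:129577905-130233322 from Klre1 to Klra7 held 8 tested genes, of which 7 were higher in CD8 and none in CD4 cells. Klra7 and other Ly49 genes are near-identical copies whose counts are uncertain. On chromosome 14, chr14:56156582-56262260 held 2 tested granzymes in opposite directions, Gzmb and Gzmc.

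Ly6c2, Jaml, Tm6sf1 and Wdr95 were also among the 12 genes with the largest CD8 excess. Ly6c2, a surface protein of effector and memory cells, was at 372, 334, 183 and 298 CPM in CD8 cells and 54.4, 71.1, 47.6 and 50.5 CPM in CD4 cells (log2 2.40 ± 0.37), with its lowest CD8 value in the TIGIT-null Treg library, and missed the threshold within lane 3 (adjusted p = 0.120) and within lane 4 alone (0.124). Jaml, a junctional adhesion molecule, lay at 49.4 to 76.4 CPM in CD8 and 3.18 to 7.51 CPM in CD4 cells (log2 3.55 ± 0.42), Tm6sf1 at 35.8 to 51.1 CPM in CD8 and 5.94 to 11.3 CPM in CD4 cells (log2 2.33 ± 0.23) and Wdr95 at 11.2 to 30.0 CPM in CD8 and 0.659 to 1.69 CPM in CD4 cells (log2 4.10 ± 0.29). Of these, Wdr95 had the largest estimate, and its UMIs were found in 9.72% to 22.2% of CD8 and 0.516% to 1.49% of CD4 cells. Itgax, the CD11c integrin chain, was outside the 12 because its CD8 mean was 14.4 CPM, with log2 3.50 ± 0.20 and UMIs in 9.75% to 16.7% of CD8 and 0.742% to 1.65% of CD4 cells.

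Genes of help and costimulation were higher in CD4 cells. Ccl1 (log2 -2.65) and Lgals7 (-2.40) came before them among the 12 genes with the largest CD4 excess. All 14 tested genes of the CD4 lineage and help list were higher in CD4 cells, beside 24.1% of all genes tested. Their median log2 was -1.11. Cd40lg, the ligand that activates B and dendritic cells through CD40, was at 3.83, 4.01, 6.08 and 3.83 CPM in CD8 cells and 17.8, 20.2, 24.2 and 22.7 CPM in CD4 cells. Every CD4 value lay above every CD8 value, and the ratio of means was 4.78 (log2 -2.26 ± 0.20, adjusted p = 1.21e-13). Tnfrsf4, the costimulatory receptor OX40, was at 82.9, 64.7, 84.4 and 77.1 CPM in CD8 cells and 282, 206, 248 and 282 CPM in CD4 cells. It was 3.29-fold higher in CD4 cells (log2 -1.71 ± 0.14, adjusted p = 1.33e-05). Zbtb7b, the ThPOK gene, was at 11.6, 12.2, 15.4 and 11.4 CPM in CD8 cells and 28.1, 27.7, 26.6 and 26.5 CPM in CD4 cells (log2 -1.10 ± 0.20). The largest values of the list after Cd40lg were those of Tnfsf11 (RANKL) at log2 -2.14 ± 0.11 and Tnfsf8 (CD30 ligand) at -1.98 ± 0.28, and the smallest named were Cd28 at -0.56 ± 0.04 and Ctla4 at -0.55 ± 0.28, whose call was lost without the wild-type, CD226-null or TIGIT-null Treg library.

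**Figure D2:**
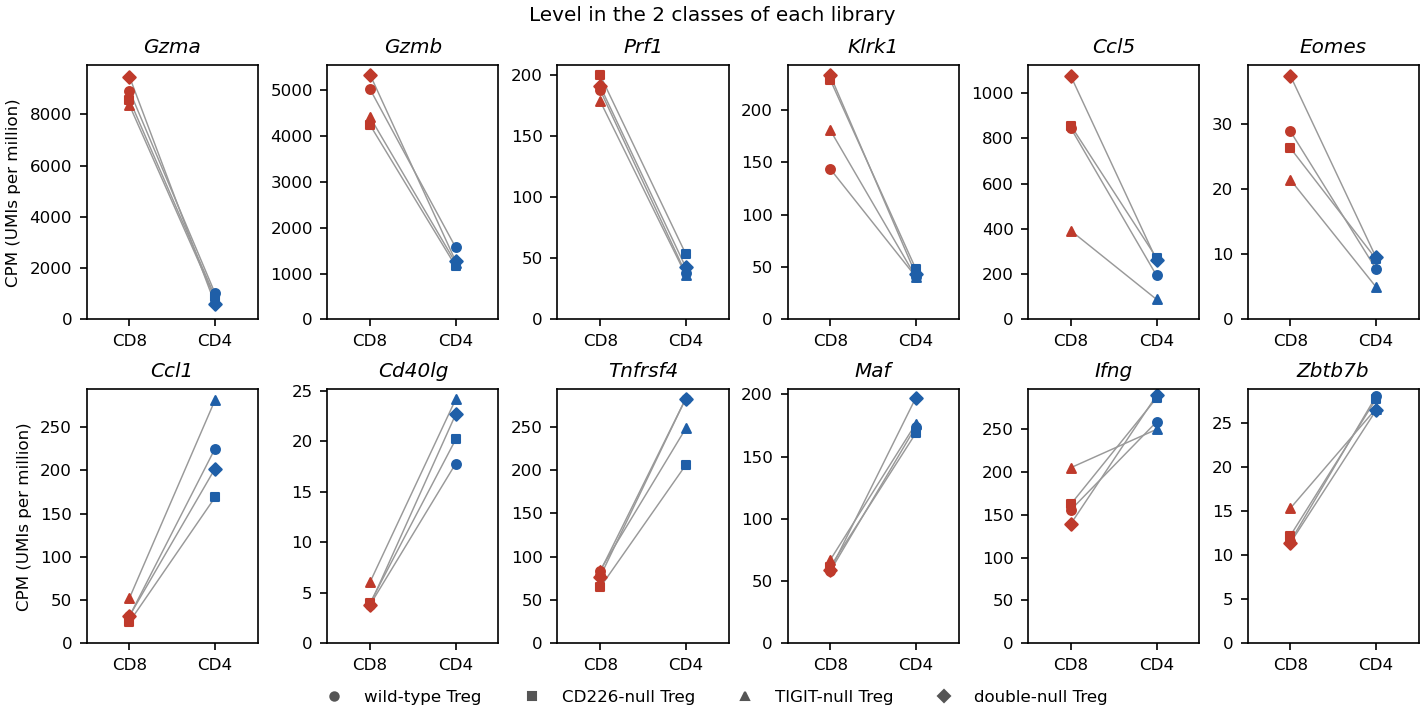
Each panel is 1 gene, with its level in CPM (y axis from 0) in the CD8 sum (red) and the CD4 sum (blue) of each library; grey lines join the 2 sums of a library and marker shapes give the Treg genotype. Gzma, Gzmb, Prf1, Klrk1, Ccl5 and Eomes fall from CD8 to CD4 in 4 of 4 libraries and the other genes rise in 4 of 4.

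Cytokine transcripts lay mainly on the CD4 side. Of 19 cytokines tested, 14 were higher in CD4 and 1 (Mif, log2 0.17 ± 0.07) in CD8 cells, beside 24.1% and 23.3% of all genes tested. Their median log2 was -1.09. Ifng, the macrophage-activating cytokine of both killer and helper cells, was at 156, 162, 205 and 139.5 CPM in CD8 cells and 258, 286, 249 and 289 CPM in CD4 cells. CD4 values were higher in 4 of 4 libraries (log2 -0.71 ± 0.32, adjusted p = 0.0396). The Ifng call was lost without the wild-type (log2 -0.70, adjusted p = 0.146), the CD226-null (-0.68, 0.144) or the double-null Treg library (-0.60, 0.114), and within lane 4 alone (-0.66, 0.440). By shares the order was not the same, since an Ifng UMI was in 40.6% to 47.2% of CD8 and 33.9% to 38.8% of CD4 cells, and after thinning in 14.4% to 17.8% and 15.7% to 17.9%. In CD4 cells the richest 1% of cells held 37.8% to 53.5% of all Ifng UMIs. The CD4 excess in CPM was thus not matched by a larger share of CD4 cells with a UMI.

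The type 2 and steroid-synthesis list had all 10 tested members higher in CD4 cells, beside 24.1% of all genes tested. Its median log2 was -1.82. Il4, which drives B-cell class switching, was at 3.93, 1.12, 5.89 and 2.60 CPM in CD8 cells and 14.1, 8.61, 16.8 and 25.4 CPM in CD4 cells (log2 -2.29 ± 0.67, adjusted p = 0.0232). Il13 was at 5.67, 2.80, 8.85 and 7.16 CPM in CD8 cells and 26.8, 19.7, 20.4 and 27.0 CPM in CD4 cells (log2 -1.95 ± 0.56, adjusted p = 0.0167). The Il4 call was lost without the wild-type (adjusted p = 0.0837) or the CD226-null Treg library (0.0890) and within lane 4 alone (0.306), and the Il13 call without the wild-type or the double-null one. Few cells carried these transcripts: an Il4 UMI was in 2.91% to 6.65% of CD4 and 0.769% to 2.31% of CD8 cells, and the richest 1% of CD4 cells held 52.0% to 85.9% of the Il4 UMIs. Il4 and Il13 are neighbours on chr11:53602982-53725106 (mm10), where Rad50, a DNA repair gene beyond Il13, differed by log2 0.07 only. Cyp11a1, the enzyme that starts steroid synthesis, lay at 0.197 to 1.35 CPM in CD8 and 0.899 to 6.59 CPM in CD4 cells (log2 -2.0 ± 0.56), and Cysltr1, a leukotriene receptor, had log2 -1.93 ± 0.32. Gata3, the type 2 lineage factor, was at 75.6 to 109.7 CPM in CD8 and 142 to 209 CPM in CD4 cells (log2 -0.91 ± 0.11).

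Other cytokines followed. Il21, the helper cytokine for germinal centres, was at 4.68, 4.08, 5.17 and 4.26 CPM in CD8 cells and 16.0, 13.7, 12.3 and 23.2 CPM in CD4 cells (log2 -1.82 ± 0.45), a call lost within lane 4 alone (adjusted p = 0.171). Csf2 (GM-CSF) had log2 -1.33 ± 0.41, Csf1 -1.59 ± 0.12, Tnf -0.79 ± 0.20, Il10 -1.10 ± 0.46 and Ebi3, a subunit of IL-27 and IL-35, -2.29 ± 0.21. Areg, the epithelial growth factor amphiregulin, had the lowest log2 of the list, -2.48 ± 0.83. The calls of Il10, Csf2 and Areg were each lost when 1 library was left out: wild-type, TIGIT-null or double-null for Il10, CD226-null or TIGIT-null for Csf2, and wild-type for Areg. Il2, the T cell growth factor, was at 6.22, 3.39, 4.94 and 4.03 CPM in CD8 cells and 6.59, 3.80, 5.82 and 8.45 CPM in CD4 cells; it was not called (log2 -0.40 ± 0.39, adjusted p = 0.133). Beside 24.1% and 23.3% of all genes tested, 9 of 11 TNF-family ligands were higher in CD4 cells and 1 was higher in CD8 cells. That one was Fasl, the Fas ligand that triggers apoptosis, at 35.9, 41.2, 38.1 and 39.4 CPM in CD8 cells and 22.3, 27.9, 21.4 and 25.4 CPM in CD4 cells (log2 0.68 ± 0.11, adjusted p = 3.39e-11).

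Chemokines were few. Ccl5, a chemokine that draws effector T cells and monocytes, was at 843, 855, 392 and 1073 CPM in CD8 cells and 194, 272, 88.8 and 262 CPM in CD4 cells. It was lowest in both classes with TIGIT-null Treg cells and 3.87-fold higher in CD8 cells by the means (log2 1.99 ± 0.22, adjusted p = 0.0012); within lane 3 alone Ccl5 had log2 1.89 (adjusted p = 0.133). Ccl1, the ligand of CCR8, was at 31.3, 24.8, 52.3 and 31.6 CPM in CD8 cells and 225, 169, 281 and 202 CPM in CD4 cells. It had the largest CD4 excess among the genes named by level (log2 -2.65 ± 0.17, adjusted p = 9.00e-05), yet a UMI was found in only 5.58% to 10.7% of CD4 and 2.49% to 5.34% of CD8 cells. Ccl3 was at 65.4 to 89.0 CPM in CD8 and 121 to 259 CPM in CD4 cells (log2 -1.12 ± 0.45, adjusted p = 0.0317), and its call was lost without any 1 of the 4 libraries, with adjusted p from 0.0524 to 0.126. Ccl4 (149 to 179 CPM in CD8 and 169.6 to 353 CPM in CD4 cells, log2 -0.61 ± 0.46) and Xcl1 (5.63 to 19.6 CPM in CD8 and 11.5 to 27.5 CPM in CD4 cells, log2 -0.50 ± 1.20) overlapped between classes and were not called. Of the 7 chemokines tested, 2 were higher in CD8 and 3 in CD4 cells, beside 23.3% and 24.1% of all genes tested, so nothing is read from these counts. Ccl1, Ccl3, Ccl4 and Ccl5 lie within chr11:82176657-83664683 (mm10).

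Receptors for chemokines and egress signals were also tested. Cx3cr1, the fractalkine receptor of cytotoxic effectors, lay at 11.1 to 19.7 CPM in CD8 and 3.41 to 7.51 CPM in CD4 cells (log2 1.33 ± 0.24). S1pr5, a sphingosine-phosphate receptor, had log2 2.57 ± 0.23 at a CD8 mean of 0.660 CPM, a level at which the pseudocount shrinks ±. Higher in CD4 cells were Ccr4 (log2 -2.37 ± 0.16), Cxcr5, the follicle-homing receptor (log2 -2.09 ± 0.24), Ccr9, the gut-homing receptor (4.44 to 11.1 CPM in CD8 and 11.3 to 26.7 CPM in CD4 cells, log2 -1.36 ± 0.18), and Gpr183, an oxysterol receptor (log2 -0.98 ± 0.12). In all, 5 of 19 tested receptors were higher in CD8 and 10 in CD4 cells, beside 23.3% and 24.1% of all genes tested. The CD8 count is near its share. The follicular helper list had 11 of 13 members higher in CD4 and none in CD8 cells, with a median log2 of -1.10. Sostdc1, a secreted BMP antagonist of follicular helper cells, was at 2.36, 1.45, 3.22 and 1.35 CPM in CD8 cells and 17.8, 10.3, 18.4 and 8.33 CPM in CD4 cells (log2 -2.70 ± 0.20, adjusted p = 1.32e-15), and Bcl6, their lineage factor, was low at 0.826 to 1.46 CPM in CD8 and 2.08 to 2.94 CPM in CD4 cells (log2 -1.10 ± 0.21).

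**Figure D3:**
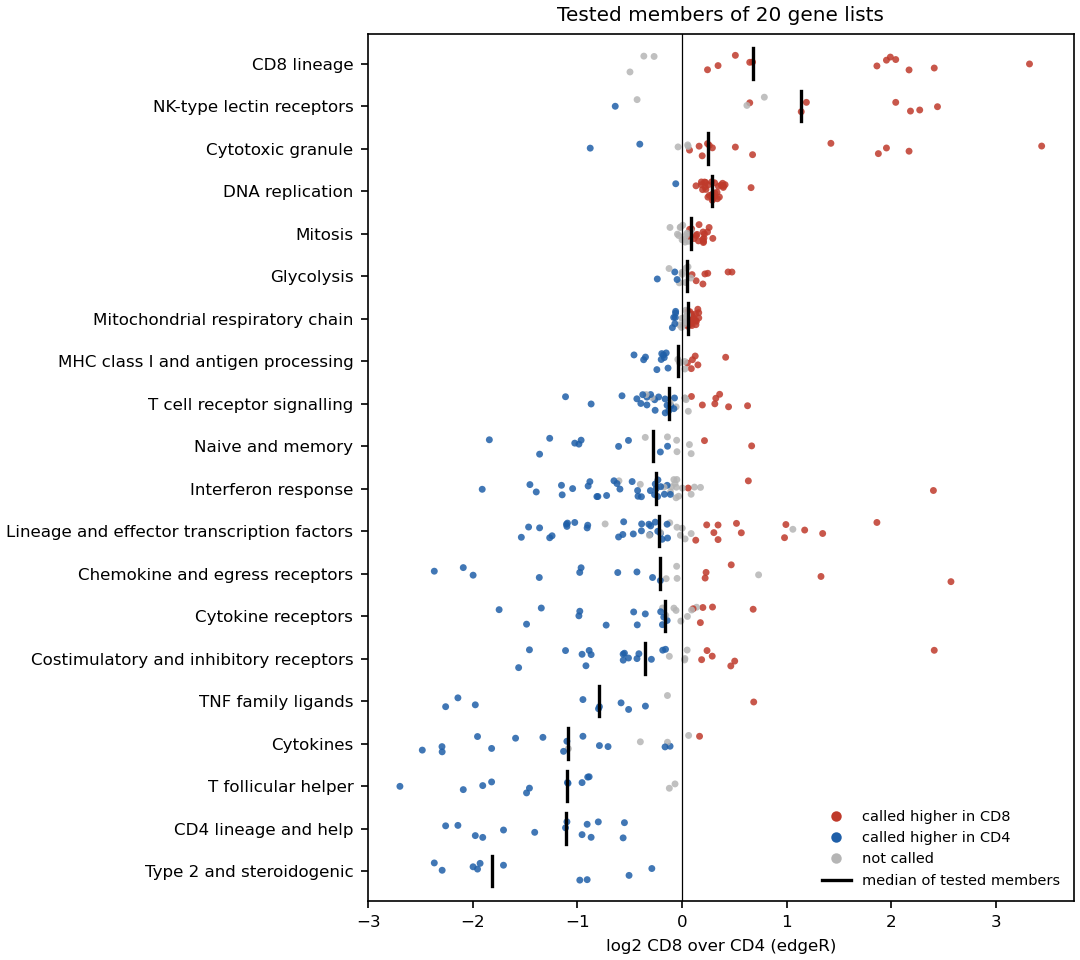
Each point is 1 tested member of a gene list (rows), placed by its log2 CD8 over CD4 estimate from edgeR (x axis); red, blue and grey mark members called higher in CD8, called higher in CD4 and not called, and black bars are the medians of tested members. The CD4 help list and the type 2 list lie entirely left of 0, while the DNA replication list lies right of 0 but for Tyms at -0.06.

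Of 48 transcription factors tested, 12 were higher in CD8 and 26 in CD4 cells, with a median log2 of -0.22. Over all genes tested the shares were 23.3% and 24.1%, and the CD8 count is near its share. Eomes, the T-box factor of memory killer cells, was at 28.9, 26.3, 21.4 and 37.4 CPM in CD8 cells and 7.76, 9.30, 5.0 and 9.55 CPM in CD4 cells (log2 1.86 ± 0.23, adjusted p = 9.48e-09). Tbx21 (T-bet), its relative in both type 1 helper and killer cells, differed little, with 63.6 to 72.2 CPM in CD8 and 50.3 to 58.4 CPM in CD4 cells (log2 0.30 ± 0.08). Runx3 was likewise close, with 125 to 144 CPM in CD8 and 105 to 109 CPM in CD4 cells (log2 0.34 ± 0.07). Zeb2, a factor of terminal effectors, had log2 1.34 ± 0.39, Ikzf3 (Aiolos) 1.17 ± 0.07 and Irf8 0.57 ± 0.17. On the CD4 side Maf, which drives Il4, Il10 and Il21, was at 58.1, 61.5, 67.0 and 58.8 CPM in CD8 cells and 174, 169, 177 and 197 CPM in CD4 cells (log2 -1.54 ± 0.15, adjusted p = 5.33e-05). Tcf7, the TCF-1 gene of stem-like and follicular cells, had log2 -1.36 ± 0.24, Id3 -1.27 ± 0.12, the aryl hydrocarbon receptor Ahr -1.24 ± 0.19, Satb1 -0.61 ± 0.07 and Tox -0.32 ± 0.19. Foxp3, the Treg factor, was at 1.57, 7.11, 3.02 and 2.63 CPM in CD8 cells and 2.26, 1.52, 1.47 and 1.18 CPM in CD4 cells and was not called (adjusted p = 0.221); its highest value was in CD8 cells of the CD226-null Treg library.

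Of 26 tested costimulatory and inhibitory receptors, 16 were higher in CD4 and 6 in CD8 cells, the latter a share near the 23.3% of all genes tested. The 2 receptors removed from the Treg donors were expressed in the wild-type conventional cells. Cd226, an activating receptor, was at 92.3, 102, 92.2 and 93.5 CPM in CD8 cells and 67.3, 72.5, 64.0 and 66.5 CPM in CD4 cells (log2 0.50 ± 0.03, adjusted p = 3.53e-12). Tigit, the inhibitory receptor that shares ligands with CD226, was at 1.91, 2.11, 1.69 and 1.88 CPM in CD8 cells and 3.79, 3.91, 3.41 and 3.38 CPM in CD4 cells (log2 -0.92 ± 0.05, adjusted p = 3.30e-06). Both class differences held in 4 of 4 libraries without overlap, in opposite directions. Cd96, a further receptor of the family, differed by log2 -0.16 ± 0.15 only. Havcr2 (TIM-3, log2 0.46 ± 0.06) and Lag3 (log2 0.24 ± 0.01) were higher in CD8 cells, Icos (-0.96 ± 0.12), Btla (-0.89 ± 0.08), Cd200 (-1.46 ± 0.23) and Cd200r1 (-1.56 ± 0.15) in CD4 cells, and Pdcd1 (PD-1) was at 125 to 149.8 CPM in CD8 and 119.9 to 182 CPM in CD4 cells and not called (adjusted p = 0.418). Of other receptors, Tnfrsf9 (4-1BB) was higher in CD8 cells at log2 0.61 ± 0.14 and Cd27 at 0.66 ± 0.06, and Il7r, the survival cytokine receptor, was higher in CD4 cells at 29.2 to 45.4 CPM in CD8 and 56.5 to 90.2 CPM in CD4 cells (log2 -0.99 ± 0.08).

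Genes of DNA replication were modestly higher in CD8 cells. Of 29 tested, 28 were higher in CD8 cells and 1, Tyms (thymidylate synthase), in CD4 cells, beside 23.3% and 24.1% of all genes tested. Their median log2 was 0.29. Rpa2, a subunit of the single-strand DNA binding complex, was at 197, 194, 181 and 219 CPM in CD8 cells and 126, 131, 114 and 135 CPM in CD4 cells (log2 0.66 ± 0.05, adjusted p = 8.15e-15). The replicative helicase subunit Mcm2 had log2 0.36 ± 0.09. Of 30 mitosis genes, 17 were higher in CD8 and none in CD4 cells, with a median log2 of 0.09, led by Racgap1 at 0.29 ± 0.08. CD8 cells were also the deeper class, and with all cells thinned to 2000 UMIs the counts were 27 of 29 replication and 23 of 30 mitosis genes. In cells with no Mki67 UMI, all 29 tested replication genes were higher in CD8 cells (median log2 0.79), as were 28 of 29 mitosis genes (median log2 0.97). Whether depth or the share of cycling cells has a part in these differences was not tested further.

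Genes of the interferon response leaned to CD4 cells. Of 46 tested, 28 were higher in CD4 and 3 in CD8 cells, with a median log2 of -0.25, and the summed level of the list ran from 9421 to 10394 CPM in CD4 and from 6019 to 7246 CPM in CD8 cells. Ifi27l2a was at 302, 355, 315 and 324 CPM in CD8 cells and 778, 879, 889.6 and 883 CPM in CD4 cells (log2 -1.39 ± 0.08, adjusted p = 8.36e-11). Ifitm2 and Ifitm3, which restrict virus entry, had log2 -1.15 ± 0.33 and -1.05 ± 0.33, both calls lost within either lane alone, without the wild-type or the double-null Treg library and that of Ifitm3 also without the CD226-null one, while their neighbour Ifitm1 was not called (log2 -0.40 ± 0.27, adjusted p = 0.0988). Ifi204, a DNA-sensing family member, had log2 -1.91 ± 0.20, and Gbp2, a guanylate-binding protein, -0.90 ± 0.09. The 3 members higher in CD8 cells were Ly6c2, Mx1 (log2 0.63 ± 0.11) and Samhd1 (log2 0.06). MHC class I genes moved less, with H2-K1 at log2 -0.37 ± 0.07 and B2m at -0.24 ± 0.04. Of 21 members of that list, 10 were higher in CD4 and 6 in CD8 cells, beside 24.1% and 23.3% of all genes tested.

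Proximal T cell receptor signalling genes were slightly lower in CD8 cells, with a median log2 of -0.13. Of 35 tested, 20 were higher in CD4 and 7 in CD8 cells, beside 24.1% and 23.3% of all genes tested. The CD8 count is near its share. Cd5 and Cd6, scavenger-receptor proteins that damp receptor signals, had the largest CD4 excess (58.5 to 71.8 CPM in CD8 and 114 to 122 CPM in CD4 cells, log2 -0.87 ± 0.12, and 32.1 to 40.8 CPM in CD8 and 75.7 to 82.0 CPM in CD4 cells, log2 -1.11 ± 0.19). Ubash3b, a phosphatase that also damps them, was higher in CD8 cells (log2 0.63 ± 0.21). The receptor chains differed little, with Cd3e at -0.08 ± 0.07 and Cd247 at -0.38 ± 0.07. The integrin chain Itgb1 was higher in CD4 cells (log2 -0.88 ± 0.19, not called within lane 4 alone, adjusted p = 0.202) and Itga1 in CD8 cells (log2 0.66 ± 0.25).

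The remaining genes of the 12 with the largest CD4 excess were mixed in kind. Lgals7, which encodes galectin-7, was at 21.9, 17.4, 42.6 and 16.5 CPM in CD8 cells and 134, 94.5, 191 and 93.8 CPM in CD4 cells (log2 -2.40 ± 0.17), highest in both classes in the TIGIT-null Treg library. Igfbp7, a secreted binding protein, was at 8.64 to 12.3 CPM in CD8 and 33.4 to 68.4 CPM in CD4 cells (log2 -2.14 ± 0.28). Tbc1d4, a Rab GTPase regulator of glucose transport, lay at 6.25 to 9.01 CPM in CD8 and 29.0 to 34.3 CPM in CD4 cells (log2 -2.12 ± 0.16). Izumo1r (folate receptor 4) had log2 -1.90 ± 0.11, Asb2 -1.78 ± 0.14 and Dnase1l3, a secreted DNase, -1.62 ± 0.08.

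Markers of other cells were also counted by class and stand here beside the killer genes. Over all genes tested, 23.3% were higher in CD8 and 24.1% in CD4 cells. Of 8 NK cell markers tested, 6 were higher in CD8 and 1 in CD4 cells, and their summed level was 8484 to 9587 CPM in CD8 and 661 to 1082 CPM in CD4 cells, of which Gzma alone made up most. Ncr1, the NK receptor NKp46, was at 0.801 to 3.75 CPM in CD8 and 0.427 to 0.865 CPM in CD4 cells. The cells had been sorted as TCRb+, and whether NK cells had a part in these levels was not tested. Of 15 macrophage and dendritic markers, 9 were higher in CD8 and 2 in CD4 cells, and their summed level was 311 to 378 against 271 to 308 CPM. Among them Fcer1g, an Fc receptor signalling chain also found in NK-like T cells, was at 43.4 to 80.4 CPM in CD8 and 18.7 to 22.7 CPM in CD4 cells (log2 1.55 ± 0.28), and Cd14, Adgre1 and Siglech were too low to test. Of 5 B-cell and plasma markers tested, 2 were higher in CD8 cells, Cd79b (15.9 to 19.7 CPM in CD8 and 3.03 to 4.89 CPM in CD4 cells, log2 2.21 ± 0.34) and Igkc (10.2 to 66.5 CPM in CD8 and 3.32 to 13.9 CPM in CD4 cells, log2 1.95 ± 0.93, a call lost without the CD226-null, TIGIT-null or double-null Treg library). No member of the neutrophil (6 tested) or erythroid (5 tested) list was called. With all cells of at least 5 UMIs of these B, macrophage, neutrophil or erythroid markers left out, 2643 genes were higher in CD8 and 2771 in CD4 cells, and 484 of the 485 still-tested genes with a difference of at least 1 log2 were called in the same direction.

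The level of Xist separated conventional cells from those with both CD45 forms. Xist, the RNA of the inactive X chromosome, was at 2.43, 3.16, 1.66 and 2.33 CPM in CD8 cells and 0.615, 0.415, 1.16 and 0.550 CPM in CD4 cells, whereas in cells carrying both CD45 forms it was at 358, 479.5, 294 and 313 CPM in CD8 and 436, 483, 492 and 413 CPM in CD4 cells. The antibody ratio thus parted cells of low and of high Xist, and the Xist difference between conventional classes lost its call without the double-null Treg library. Uty, on the Y chromosome, was at 6.38 to 7.11 CPM in CD8 and 7.68 to 9.33 CPM in CD4 cells.

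Cells left outside the classes resembled CD4 cells. Over the 66 genes with a difference of at least 1 log2 and a mean of at least 20 CPM in the higher class (30 higher in CD8, 36 higher in CD4), the cells with neither coreceptor transcript lay closer to the CD4 sum for 63, 63, 65 and 65 genes in the 4 libraries. Cells with tied counts lay closer to it for 62, 61, 62 and 62 genes. Gzma was at 1261, 1206, 1050.4 and 949 CPM in cells with neither transcript, a little over the CD4 values given above and far under the CD8 values. Cd40lg was at 16.1, 21.0, 22.7 and 21.9 CPM in them. Ccl1 was the clearest exception to a CD4 level, at 89.1, 45.22, 149 and 105 CPM, between the classes. These genes were chosen for their difference between the classes, so the positions are a description. Cells with neither transcript were the shallowest, with median depths of 5766 to 6920 UMIs.

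**Figure D4:**
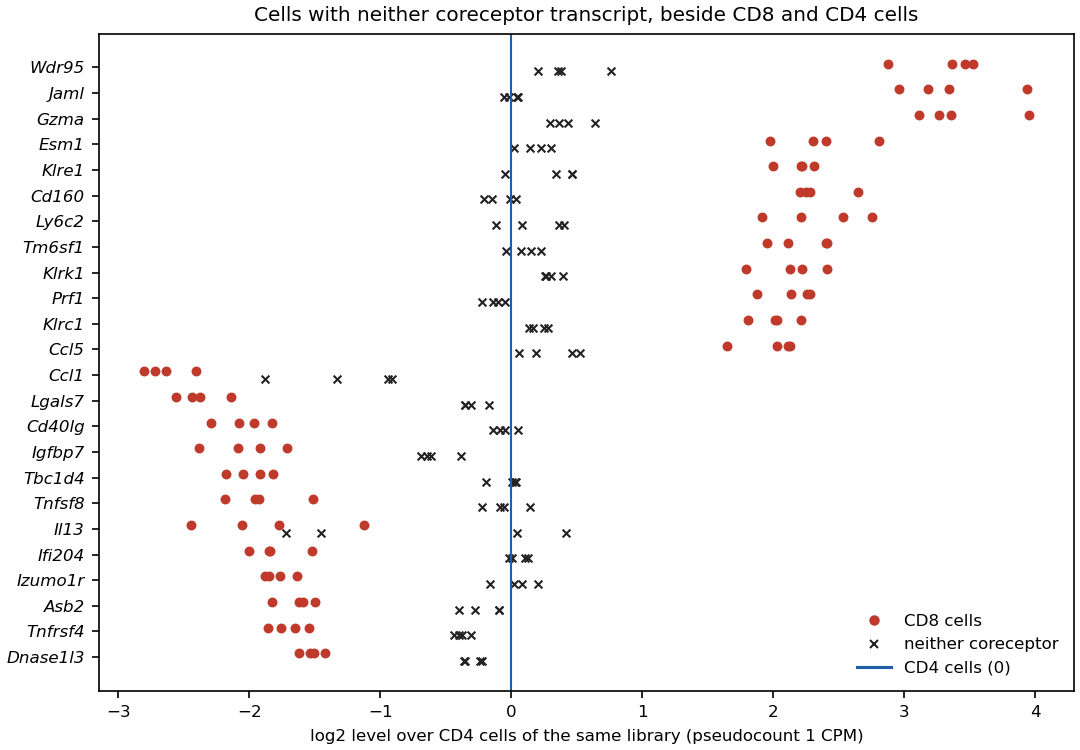
Rows are the 12 genes with the largest CD8 excess and the 12 with the largest CD4 excess; the x axis is the log2 level over the CD4 cells of the same library (pseudocount 1 CPM), 1 point for each of 4 libraries. Red points are CD8 cells and black crosses are cells with neither coreceptor transcript, which lie near 0, the CD4 level, for most genes but below it for Ccl1 and, in 2 libraries, for Il13.

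The same comparison was made in cells carrying both CD45 forms, which can hold progeny of the bone marrow and doublets (809 CD8 and 878 CD4 cells with a log2 antibody ratio from -1.5 to 1.5). There 1725 of 8381 genes tested (20.6%) were called, 877 higher in CD8 and 848 higher in CD4 cells. Of 161 genes that were called at least 1 log2 unit apart in conventional cells and could be tested here, 159 had the same sign, 128 were called in the same direction and none in the opposite one. Prf1 was at 292, 453, 233 and 297 CPM in CD8 and 24.8, 28.1, 19.0 and 36.9 CPM in CD4 cells of this kind (log2 3.59 ± 0.41, adjusted p = 4.03e-11). Gzma had log2 3.1 ± 0.31 there, Cd40lg -2.40 ± 0.44 and Il4 -3.12 ± 0.78. Lamp1 was called in both sets in opposite directions, with log2 -0.36 ± 0.26 in cells with both forms. The 2 sets differed in Treg genes: CD4 cells with both forms had means of 39.3 CPM Foxp3 and 266 CPM Ikzf2. Conventional CD4 cells had 1.61 and 38.0 CPM. The 161 genes were chosen by their call in conventional cells, which doublets can hold, so the shared direction is a description. Both sets come from the same 4 libraries, and whether the differences are of unequal size was not tested.

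**Figure D5:**
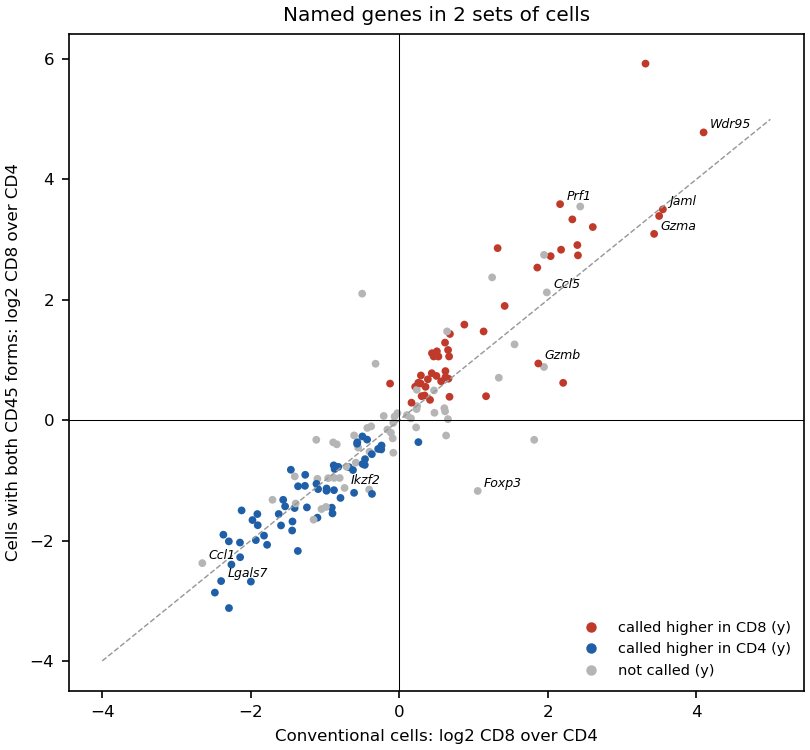
Each point is 1 named gene, with its log2 CD8 over CD4 in conventional cells (x axis) and in cells carrying both CD45 forms (y axis), both from edgeR; the dashed line marks equal values and colours give the call in cells with both forms. Most points lie in the lower left and upper right, and Foxp3 lies at 1.06 and -1.18, called in neither set.

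The size of the class difference was also set against the genotype of the transferred Treg cells, with 2 libraries on each side. For CD226, 15 of 11487 genes (0.131%) had a class difference that depended on genotype at an adjusted p of at most 0.05 (edgeR interaction term; 617 at an unadjusted p under 0.05). Of these, Ngp, Camp, Chil3, Lcn2, Ltf, Wfdc21 and S100a8 are neutrophil genes, and in each library 90.5% to 96.0% of the UMIs of the neutrophil list in the class that held most of them came from 1 barcode. Those barcodes were in the CD8 class with CD226 present and in the CD4 class with CD226 null. Their share was counted over S100a8, S100a9, Ngp, Camp, Lcn2 and Ltf together, without Chil3 and Wfdc21. Without the cells rich in markers of other lineages the count was 13, and none of these neutrophil genes was among them. Called only without those cells were Ccl3 (interaction log2 -0.83), Ccl1 (-0.42), Gpr65 (-0.42), Cd6 (-0.36), Batf (-0.20), Palm (0.91) and 3830403N18Rik (3.15).

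Il4 and Klk8 were called with and without those cells. For Il4 the libraries' log2 ratios were -1.62 and -1.37 with CD226 present (wild-type and TIGIT-null Treg) and -2.18 and -2.87 with CD226 null (interaction log2 -1.53, adjusted p = 2.85e-05). Without the double-null Treg library the Il4 interaction was -1.28 (adjusted p = 0.0691), and its UMIs came from few cells, as given above. For Klk8, a kallikrein-type protease, CD8 and CD4 levels were near equal with CD226 present (log2 ratios 0.028 and 0.0048) and CD8 cells were higher with CD226 null (0.47 and 0.45; interaction log2 0.45, adjusted p = 1.91e-05). The CD4 level of Klk8 was 106 and 117 CPM with CD226 present and 89.4 and 87.5 CPM with CD226 null. Pou2f2 (interaction log2 -0.32), Penk (-3.62), Gldc (-1.53) and Gm13546 (-0.44) were also called with and without those cells, whereas Anxa1, annexin A1 (-0.62), and Ifitm6 (-2.43) lost their calls without them. The Pou2f2 call was lost without the wild-type, TIGIT-null or double-null Treg library, that of Anxa1 without the TIGIT-null or double-null one, and both with DESeq2.

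For TIGIT, which cannot be told apart from the sequencing lane in these libraries, 0 genes (0%) were called by edgeR and 0 by DESeq2, with 305 genes at an unadjusted p under 0.05 in edgeR. The 5 smallest p-values belonged to Trav13-1, Trav13-2, Epha3, Trbv2 and Cd69. Trav13-1, Trav13-2 and Trbv2 are T cell receptor variable segments, at 0 to 3.83 CPM. Epha3 was at 12.6 CPM in CD8 cells of the double-null Treg library and at 1.72 to 2.39 CPM in CD8 cells of the other 3. Cd69, an early activation marker, was at 37.4, 44.1, 38.1 and 28.9 CPM in CD8 and 42.1, 50.4, 52.2 and 41.4 CPM in CD4 cells (interaction log2 -0.30, adjusted p = 0.9998).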

How the data were processed

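Single-cell 3′ RNA libraries with antibodies to CD45.1 and CD45.2 were analysed from the deposited UMI counts per gene and barcode, which the authors made with Cell Ranger 3.1.0 on mm10, per the submitters' processing notes. Whether counting used strand and how reads of near-identical genes were assigned is not given in the sources used here. Of 39421 deposited barcodes, 36140 were kept (500 genes or more, no more than 10% of UMIs mitochondrial). No doublet caller was run; a stricter class with 2 own coreceptor UMIs and 0 of the other was an alternative.

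Counts were summed by class and library (25441326 to 39929802 UMIs a sum) after which genes passing filterByExpr were scaled by TMM and tested by edgeR's robust quasi-likelihood test (edgeR 4.0.16, R 4.3.3) with library as block; p-values were adjusted by Benjamini-Hochberg and called at 0.05 or less. Library is the block because both classes of a library come from the same pool. Each class-by-genotype interaction was fitted with the same blocks. DESeq2 1.42.0 was an alternative. The fit was tested on simulated counts.

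Named genes were the 12 largest called differences in each direction with a mean of at least 20 CPM in the higher class (leaving out Cd4, Cd8a, Cd8b1 and Gm, Rik or accession names), members of the gene lists, and genes called in the interactions or, with none called, the 5 with the smallest p. Smyd1, Gm44175 and Gm156 were chosen after their values were seen. Comparison, lists and genes were chosen with earlier results of these data known. Gene positions are those of GENCODE M21 (GRCm38), in which 30934 of 31053 gene IDs were found. Promoters are those of RefSeq. Values of some list members are not reported here. Precision is limited by 4 libraries, and all intervals are over libraries.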

Additional observations from a re-analysis of the deposited data

Results flagged for a closer look

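In 12 of 176 groups of 4 libraries checked, 1 library stood far from the other 3 by Dixon's test at 95%, which chance gives in about 1 in 20 groups. The log2 CD8 over CD4 ratio stood apart in the wild-type Treg library for Gzmm (1.48), Ccr9 (-1.52), Cxcr5 (-1.04), Prdm1 (0.070), Tcf7 (-0.94) and Pfkp (0.35). It stood apart in the double-null Treg library for Itgax (3.05), Il2 (-0.91), Tnfrsf25 (-1.54) and Casp1 (-0.95), and in the TIGIT-null Treg library for Itga4 (0.34). The share of CD8 cells among conventional cells stood apart in the double-null Treg library, at 41.4%.

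The class difference depended on the CD226 genotype of the Treg donors for 15 genes in edgeR's interaction test, with the log2 of the CD226-null minus the CD226-present difference as follows. It was -9.36 for Ngp, -9.05 for Camp, -7.37 for Chil3 and -7.38 for Lcn2. For Ltf it was -9.01, for Wfdc21 -7.70 and for S100a8 -7.79. These are the neutrophil genes described above. For Ifitm6 it was -2.43, for Anxa1 -0.62, for Penk -3.62, for Pou2f2 -0.32, for Gldc -1.53 and for Gm13546 -0.44. For Il4 it was -1.53 and for Klk8 0.45.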

How the results depend on the processing

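Without the replicate block (library) 1715 genes were higher in CD8 and 1874 in CD4 cells. DESeq2's Wald test called 1693 and 1554, a mean of at least 20 CPM left 1457 and 1517 (24 and 28 at least 1 log2 unit apart), cells thinned to 2000 UMIs gave 1741 and 1751 (132 at least 1 log2 unit higher in CD8), and cells with no Mki67 UMI gave 1743 higher in CD4. Lane 3 alone gave 1690 and 1801, and lane 4 alone 1731 and 1762; of 170 named values, 14 lost their call in lane 3 and 22, Gzma among them, in lane 4. Leaving out 1 library gave 2212 to 2397 genes higher in CD8 and 2351 to 2511 higher in CD4, and 220 to 233 and 276 to 313 at least 1 log2 unit apart. Of the genes called both here and in an alternative, all had the same sign except in cells with no Mki67 UMI (2983 of 2997), and no gene at least 1 log2 unit apart was called in reverse. Scaling by library totals alone put 45.19% of calls on the CD8 side, against 49.06%. The sign turned for Tyms in thinned cells (0.038) and in cells with no Mki67 UMI (0.44), for Eif2s3y with the stricter class (0.0084) and for Xcl1 when 1 library was left out (-0.90 to 0.036, the highest without the wild-type Treg library); the cause was not tested. For the CD226 interaction, no filter on low counts gave 65 genes and leaving out 1 library 18 to 28. For the TIGIT interaction these were 23 and 0 to 18, and 4 without cells rich in markers of other lineages. The CD4 class rests on few Cd4 UMIs, so depth limits how cleanly it is drawn. With 2 own coreceptor UMIs and 0 of the other, 2291 genes were higher in CD8 and 2359 in CD4 cells, of 10928 tested. At least 1 log2 unit apart were 232 higher in CD8 and 349 higher in CD4 cells, against 220 and 282 in the main fit. Leaving out cells of other lineages, counting cells with neither transcript as CD4, and the leave-out fits of the interactions were chosen after seeing the data.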

Other observations

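Metabolic genes differed little between the classes. Of 18 glycolysis genes tested, 7 were higher in CD8 and 3 in CD4 cells (median log2 0.05), from Slc16a3, a lactate exporter, at 0.48 ± 0.07 to Hk1, a hexokinase, at -0.24 ± 0.07. Of 35 respiratory chain genes, 20 were higher in CD8 and 6 in CD4 cells, with a median log2 of 0.06. Of 28 survival and death genes, 6 were higher in CD8 and 13 in CD4 cells. Over all genes tested the shares were 23.3% and 24.1%, and the CD8 count of survival and death genes is near its share. Casp4 and Casp1, inflammatory caspases, lay at 11.8 to 14.5 CPM in CD8 and 26.5 to 30.0 CPM in CD4 cells (log2 -1.09 ± 0.10) and at 24.9 to 35.0 CPM in CD8 and 49.1 to 60.8 CPM in CD4 cells (log2 -0.82 ± 0.09), and Bbc3, the death-promoting PUMA gene, had log2 -0.84 ± 0.16. Anxa1, annexin A1, was at 9.91, 7.70, 11.9 and 6.06 CPM in CD8 cells and 22.5, 24.0, 24.9 and 21.9 CPM in CD4 cells (log2 -1.41 ± 0.33). Of 16 RNA quality and stress genes, 3 were higher in CD8 and 7 in CD4 cells, from Hsph1 at 0.62 ± 0.17 to Egr1 at -1.11. Of the schlafen genes between Ccl1 and Ccl5 on chromosome 11, Slfn1, Slfn2, Slfn5 and Slfn9 were higher in CD4 cells. Their log2 values were -0.88, -0.65, -1.45 and -0.32. Slfn3 (log2 -0.09) and Slfn8 (-0.06) were not called.

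Genes beside the CD8 coreceptor genes, chosen after their values were seen, had the largest estimates among genes whose mean over the class sums reached 1 CPM. Smyd1, on the minus strand and ending just before Cd8b1, was at 3.18, 3.19, 2.47 and 3.16 CPM in CD8 cells and 0, 0, 0.0388 and 0.0786 CPM in CD4 cells. Gm44175, between Cd8b1 and Cd8a on the minus strand, was at 4.85, 6.68, 4.91 and 6.61 CPM in CD8 cells and 0.0683, 0.0692, 0.155 and 0.0786 CPM in CD4 cells. Krcc1, within the span of Smyd1 on the plus strand, had log2 -0.05 and was not called. Whether reads of Cd8a and Cd8b1, which set the classes, were counted to these neighbours was not tested. Gm156, among the lectin receptor genes of chromosome 6, was at 0.820, 0.921, 1.40 and 1.25 CPM in CD8 cells and had 0 UMIs in CD4 cells of all 4 libraries. Beside Cd4, Lag3 was higher in CD8 cells (log2 0.24) and Ptms was not called (log2 0.03).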
